A study of Mus musculus with 6 samples.

Results

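The genes for the eukaryotic translation initiation factors (eIFs) and their direct regulators were examined for the promoter mark H3K27ac in mouse embryonic stem cells (mESCs). The members were all autosomal protein-coding genes of the GENCODE annotation of GRCm38 whose symbol starts with Eif1 to Eif6, which gave 52 of 20722 autosomal protein-coding genes. They lie on 18 chromosomes. Of these, 44 were grouped as factors or factor subunits and 8 as regulators, namely the 4 eIF2 kinases and the 4 eIF4E-binding proteins. The 44 include Eif4a3, a helicase of the exon junction complex, and Eif4e2, which acts in repression.

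H3K27ac, acetylation of histone H3 at lysine 27, was measured by ChIP-seq in mESCs labelled as E14Tg2A with Rosa26-Cre and Oct4-IRES-Puro, which all groups share, cultured in N2B27 medium with LIF and inhibitors of MEK and GSK3. The series holds 2 samples each of cells given the solvent DMSO (control), 100 nM NVP-2, an inhibitor of the kinase CDK9, or ActD, labelled 800 nM, a DNA intercalator that blocks transcription, all for 120 min. Every sample also received HEK293T chromatin, from a human kidney-derived line, as a spike-in. The data described here are the peaks of the control cells, deposited as a single list of 22973 peaks pooled over both control replicates, and the treated samples were not analysed here.

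Each line of the list gives only where a peak begins and ends. There is hence no height, no read count and no replicate error, the depth behind a peak cannot be read from the list, and no difference below was tested. Of stem cell marker genes, 7 of 9 had a marked promoter, among them Pou5f1, Sox2 and Nanog. Klf4 was unmarked at all 3 of its annotated starts, and Esrrb at the start used here but not at 3 of its 4. Of 10 autosomal markers of other lineages and feeder cells only Gata4 did.

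Translation initiation brings the ribosome to the start codon of an mRNA. eIF2, bound to GTP and the initiator tRNA, joins the small ribosomal subunit together with eIF1, eIF1A, eIF3 and eIF5, and eIF4F (the cap-binding protein eIF4E, the scaffold eIF4G and the helicase eIF4A) recruits this complex to the capped mRNA. eIF5B then promotes joining of the large subunit. Control acts mainly at eIF2, which stress-activated kinases phosphorylate and eIF2B recharges with GTP, and at eIF4E, which the 4E-BPs sequester when mTOR is inactive. H3K27ac is found at active promoters and enhancers, and promoters rich in CpG dinucleotides, typical of housekeeping genes, commonly carry it.

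Almost all of these genes carried the mark. A promoter was called marked when a peak overlapped the window of 1 kb on either side of the transcription start site (TSS) by at least 1 bp, with the TSS taken from the isoform of the longest genomic span. By this rule 46 of 52 member promoters were marked, 88.5% (95% Wilson interval 77.0 to 94.6, which covers counting error only), against 50.1% of all 20722 autosomal protein-coding promoters. The difference was 38.4 percentage points. The share was similar for factors, with 39 of 44 marked (88.6%), and for regulators, with 7 of 8 (87.5%).

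At each of the 46 marked members the peak contained the TSS itself. Over all autosomal protein-coding genes the TSS lay inside a peak for 45.2%, that is for 90.3% of the marked ones. No member had more than 1 peak over its window, which follows from the merging of peaks within 2 kb before deposit, and the 46 marked members had 46 distinct peaks with a total length of 355.7 kb. The 6 members without a marked promoter were Eif1, Eif3j2, Eif3k, Eif4e1b, Eif4e3 and Eif4ebp3. None of them had a peak at the start of any annotated isoform, and 3 of the 6 have more than 1 annotated start.

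**Figure D1:**
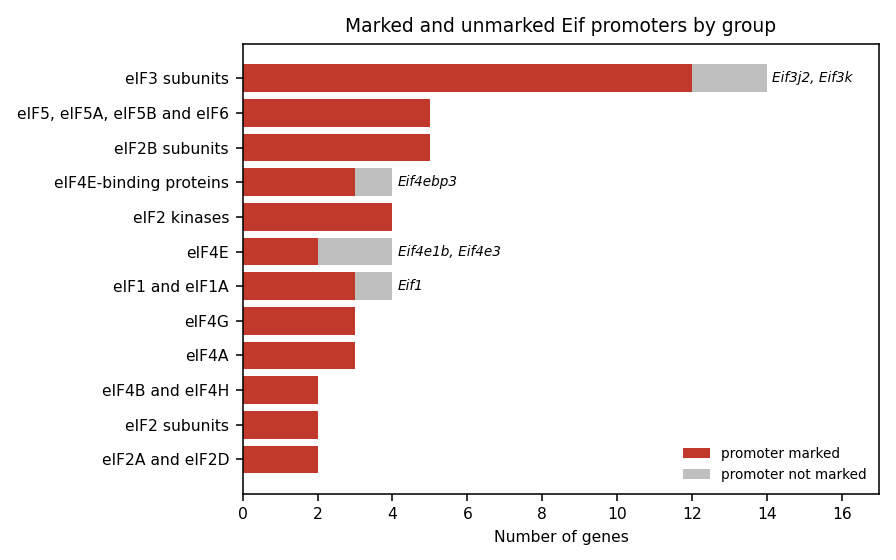
Number of Eif genes with a marked (red) and an unmarked (grey) promoter in each group of factors, in control mESCs. In 8 of the 12 groups every promoter was marked, and the 6 unmarked genes, named beside their bars, fall into the other 4 groups.

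Genes of the ternary complex and of its control were all marked. eIF2 consists of an alpha, a beta and a gamma subunit, of which the alpha and beta genes are autosomal. Eif2s1, the alpha subunit that the stress kinases phosphorylate, had a peak of 5204 bp, which reached 3851 bp upstream and 1352 bp downstream of the TSS and also held the promoter of Atp6v1d, 181 bp away on the opposite strand. Eif2s2, the beta subunit, had a much wider peak of 24988 bp (chr2:154883699-154908686), which covered 42.9% of the gene and ended in intron 4. The X-linked gamma subunit gene Eif2s3x and Eif1ax, outside the autosomal rule, were also marked, with peaks of 8577 bp and 6073 bp. The peak over Y-linked Eif2s3y was 461321 bp wide, where the widest at any marked autosomal promoter was 123797 bp, and is not comparable with the other promoter peaks.

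All 5 genes of eIF2B, the exchange factor that restores GTP on eIF2, were marked. Eif2b5, the catalytic epsilon subunit, had the widest at 10862 bp (chr16:20493925-20504786), which extended over 56.8% of the gene and into exon 8. Eif2b4 followed with 6276 bp, most of it upstream of its own start (4936 bp) and shared with Snx17. The peaks of Eif2b1 (1941 bp), Eif2b2 (1616 bp) and Eif2b3 (1243 bp) were below the 2124 bp median of all marked promoters. The TSS of Eif2b1 lies 9 bp from that of Gtf2h3 on the opposite strand, and 1 peak covered both.

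The 4 kinases that phosphorylate eIF2 alpha in response to different stresses were each marked. Eif2ak1 (HRI, sensitive to heme) had a peak of 1229 bp, Eif2ak4 (GCN2, activated in amino acid shortage) 1591 bp and Eif2ak3 (PERK, activated in the endoplasmic reticulum) 2388 bp. Eif2ak2 (PKR, activated by double-stranded RNA) had 5011 bp, of which 3838 bp lay upstream of the TSS, and the peak also held the promoter of the lincRNA Gm26637. In all 4 genes the peak ended in intron 1. Eif2a and Eif2d, which can deliver initiator tRNA without eIF2, had peaks of 2539 bp and 12580 bp. The peak of Eif2a was shared with Serp1, and that of Eif2d lay mainly upstream.

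eIF3, the largest initiation factor and the scaffold of the preinitiation complex, was marked at 12 of 14 genes. The median width was 2179 bp, close to the 2124 bp of all marked autosomal protein-coding promoters, and 6 of the 12 were narrower than 2 kb. No eIF3 peak reached the 10 kb seen at genes of eIF2, eIF2B and eIF4. The widest, 5410 bp, was that of Eif3a, the largest subunit, and it was followed by those of Eif3l (4828 bp), Eif3d (3443 bp) and Eif3b (3184 bp). The peaks of Eif3e (2626 bp), Eif3j1 (2362 bp), Eif3c (1996 bp), Eif3g (1782 bp), Eif3h (1758 bp), Eif3m (1679 bp) and Eif3i (1649 bp) lay in a narrow range. Eif3f had the narrowest peak of all marked members, 1210 bp (chr7:108934359-108935568), which began 58 bp upstream of the TSS. The TSS of Eif3i lies 32 bp from that of Tmem234 on the opposite strand, and the peak covered both.

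Among the genes of eIF4F and its partners, widths differed most. Eif4a1, the main helicase, lay wholly within a peak of 19753 bp (chr11:69654351-69674103), which extended beyond its 3′ end and held the promoters of Cd68, Mpdu1 and Sox15 as well. Its paralog Eif4a2 also lay wholly within a peak, of 26916 bp, which reached 19248 bp upstream. Eif4a3, a helicase of the exon junction complex rather than of initiation, had 1771 bp. The helicase cofactors Eif4b and Eif4h had peaks of 11470 bp and 4934 bp. The scaffold genes Eif4g1, Eif4g2 and Eif4g3 were all marked, with 6888 bp, 4066 bp and 1375 bp. Eif4g3 is the longest member gene, 215487 bp, and its promoter peak covered 0.627% of it.

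Eif5, Eif5a, Eif5a2, Eif5b and Eif6 were all marked. Eif5, which activates GTP hydrolysis by eIF2, had a peak of 8459 bp that covered 82.9% of the gene. Eif5a, a hypusine-modified factor, had 3765 bp and its paralog Eif5a2 1406 bp. Eif5b had 2631 bp, shared with Txndc9. Eif6, which keeps the ribosomal subunits apart, had 1730 bp. Eif1a and Eif1ad had peaks of 8533 bp and 1967 bp, shared with Tmed7 and Banf1 respectively.

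**Figure D2:**
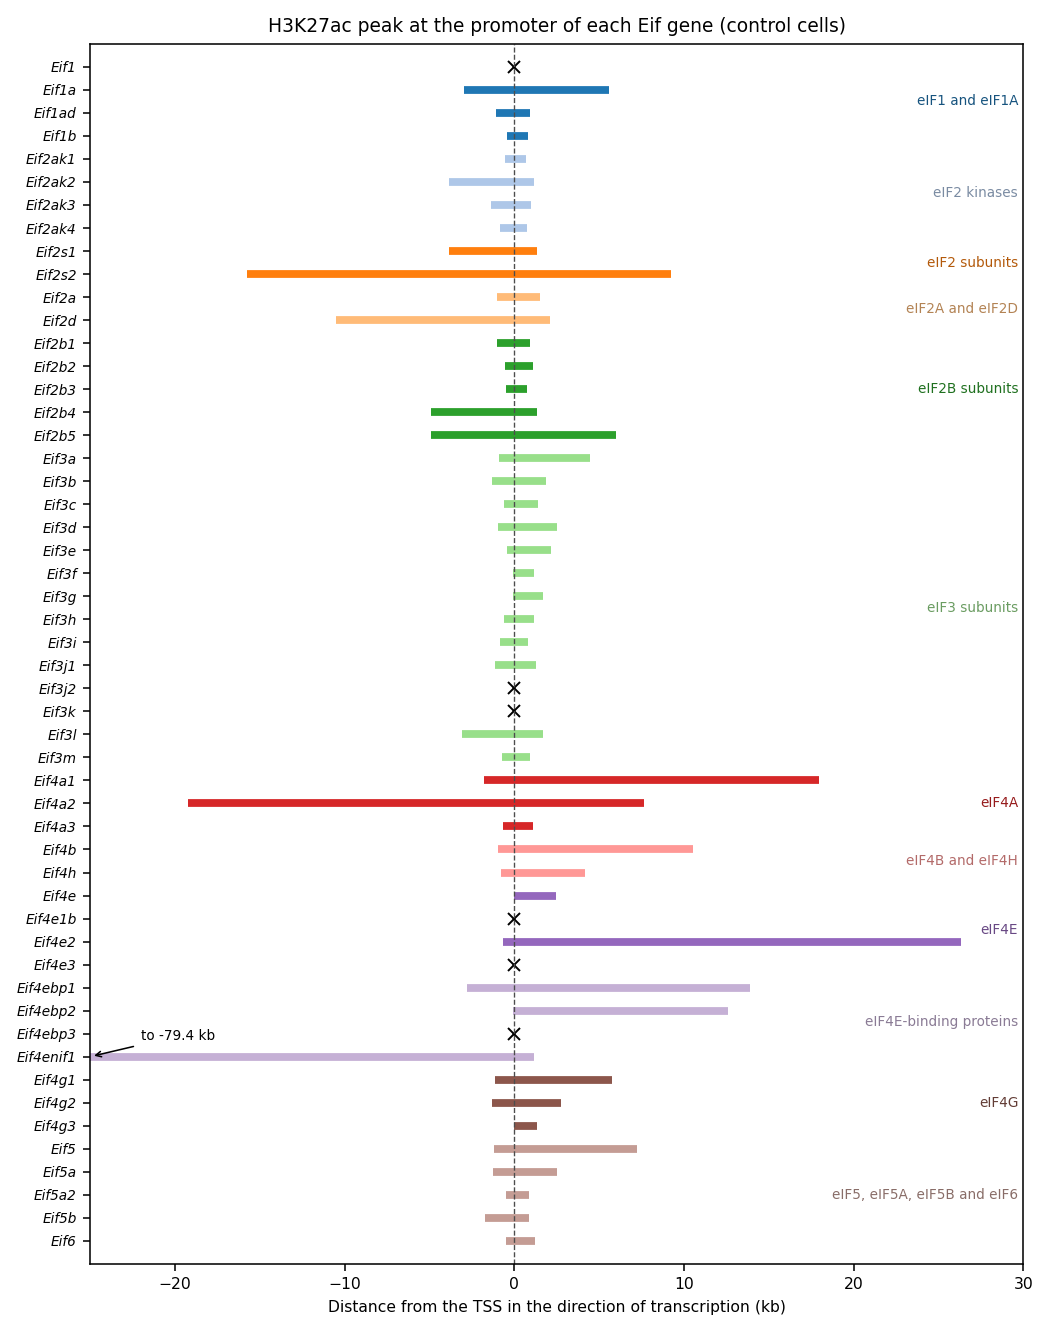
Extent of the H3K27ac peak at the promoter of each of the 52 Eif genes in control mESCs, in kb from the TSS along the direction of transcription, coloured by group. Crosses mark the 6 genes without a peak. Peaks of eIF3 genes stayed within 5 kb of the TSS, Eif4e2 reached 26322 bp into its gene, and the peak of Eif4enif1 continued to 79419 bp upstream, beyond the axis.

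Marked and unmarked paralogs stood side by side in several subfamilies. Sequences of 220 bases around the RefSeq start (200 before it and the 20 from it, 5′ to 3′ on the strand of the gene, GRCm38.p6) are shown for paralogs that differed in state and, further below, for members with the widest peaks. CpG dinucleotides are in capitals. Over all promoters of the RefSeq table such a stretch held a median of 11 CpG, over marked promoters 17 and over unmarked promoters 3. The members with an entry had a median of 18.5.

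Eif1 and Eif1b encode near-identical factors that monitor start codon selection. Only Eif1b was marked, with a peak of 1256 bp at chr9:120492037-120493292, which reached 454 bp upstream and ended in intron 1. At Eif1, with its TSS on chromosome 11 at position 100319885, the nearest peak lay 12.1 kb upstream and was 208 bp wide (chr11:100307562-100307769), in no protein-coding or lincRNA gene. The stretches below are chr11:100319749-100319968 of Eif1 and chr9:120492406-120492625 of Eif1b, both on the plus strand. They held 19 and 40 CpG.
Eif1: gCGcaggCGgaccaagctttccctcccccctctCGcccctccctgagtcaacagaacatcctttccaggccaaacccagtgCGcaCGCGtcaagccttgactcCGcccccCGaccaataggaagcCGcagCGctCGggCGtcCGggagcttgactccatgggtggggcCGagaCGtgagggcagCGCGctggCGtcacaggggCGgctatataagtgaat
Eif1b: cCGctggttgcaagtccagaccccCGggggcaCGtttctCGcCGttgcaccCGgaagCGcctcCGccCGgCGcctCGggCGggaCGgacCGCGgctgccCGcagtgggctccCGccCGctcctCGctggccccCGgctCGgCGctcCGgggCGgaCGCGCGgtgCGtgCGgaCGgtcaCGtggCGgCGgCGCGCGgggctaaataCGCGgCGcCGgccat
Eif1 was thus not a CpG-poor promoter. Its stretch held as many CpG as the median member, and within 250 bp of the TSS its CpG ratio (observed over expected) was 0.944 at a GC content of 66.9%. Within the same distance the ratio was 1.01 at Eif1b.

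Eif3j1, which encodes the loosely bound j subunit of eIF3, had a peak of 2362 bp, nearly symmetric about the TSS (1113 bp upstream, 1248 bp downstream). Its stretch, chr2:122028380-122028599 on the plus strand, held 24 CpG.
Eif3j1: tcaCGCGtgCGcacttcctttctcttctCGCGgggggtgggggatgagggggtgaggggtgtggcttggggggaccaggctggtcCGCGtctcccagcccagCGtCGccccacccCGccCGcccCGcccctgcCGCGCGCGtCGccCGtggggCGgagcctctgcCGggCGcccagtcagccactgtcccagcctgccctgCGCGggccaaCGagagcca
The paralog Eif3j2 is annotated with a single exon of 2379 bp. It was unmarked, and the nearest peak lay 83.9 kb away, in the gene Dpysl3. The CpG ratio within 250 bp of its start was 0.911, close to that of Eif3j1 (0.883), but the GC content there was 57.3% against 72.1%. Within 1 kb the 2 genes differed in both, with a ratio of 0.548 at Eif3j2 against 0.853 and a GC content of 41.9% against 57.1%.

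The eIF4E subfamily was marked at 2 of 4 genes. Eif4e, the cap-binding subunit of eIF4F, had a peak of 2475 bp that began 34 bp upstream of the TSS and lay almost wholly within the gene. Eif4e2 (4EHP), a cap-binding protein that does not bind eIF4G and acts in repression, had a peak of 26971 bp (chr1:87213266-87240236) that covered 99.1% of the gene and ended in its last exon. The stretches of the 2 marked genes follow, chr3:138525991-138526210 for Eif4e and chr1:87213714-87213933 for Eif4e2, both on the plus strand. They held 8 and 17 CpG.
Eif4e: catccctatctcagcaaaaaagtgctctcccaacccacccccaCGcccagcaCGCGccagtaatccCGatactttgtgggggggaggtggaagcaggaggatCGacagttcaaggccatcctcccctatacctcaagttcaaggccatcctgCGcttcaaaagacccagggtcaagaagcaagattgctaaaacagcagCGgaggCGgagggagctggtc
Eif4e2: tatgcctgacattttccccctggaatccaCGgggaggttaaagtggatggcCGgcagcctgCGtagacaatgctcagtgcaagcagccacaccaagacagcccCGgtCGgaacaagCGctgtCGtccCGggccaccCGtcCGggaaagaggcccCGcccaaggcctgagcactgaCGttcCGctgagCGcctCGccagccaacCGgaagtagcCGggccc
Eif4e3, which binds the cap in an atypical way, and Eif4e1b, known from oocytes, were unmarked. The nearest peaks lay 143.4 kb from Eif4e3, at the promoter of Foxp1, and 34.0 kb from Eif4e1b. The 2 unmarked genes were unlike in sequence. Eif4e3 had a GC content of 74.7% and a CpG ratio of 0.860 within 250 bp of its TSS, and Eif4e1b a GC content of 51.3% and a ratio of 0.213, the lowest of all members. Eif4e, which was marked, had the lowest ratio of the marked members, 0.542. At the starts used, the order of CpG content in this subfamily was thus not the order of marking. Other annotated starts of Eif4e lie 246 to 1117 bp downstream, further inside its peak, and the CpG ratio around them was not read.

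Among the eIF4E-binding proteins, Eif4ebp1 and Eif4ebp2, the targets of mTOR, had wide peaks of 16691 bp and 12659 bp that lay mainly downstream of the TSS and covered 85.1% and 52% of the genes. The peak of Eif4ebp2 began only 91 bp upstream of the TSS. Eif4enif1 (4E-T), which carries eIF4E into the nucleus, lay at the end of the widest peak of all members, 80593 bp (chr11:3122973-3203565). Only 1173 bp of that peak lay downstream of the Eif4enif1 TSS, 2.78% of the gene, and the other 79419 bp, the longest upstream reach of any of the 10381 marked genes, included the promoter of Sfi1, 8929 bp away. The stretches of Eif4ebp2 (chr10:61452650-61452869, minus strand) and Eif4enif1 (chr11:3202153-3202372, plus strand) held 28 and 20 CpG.
Eif4ebp2: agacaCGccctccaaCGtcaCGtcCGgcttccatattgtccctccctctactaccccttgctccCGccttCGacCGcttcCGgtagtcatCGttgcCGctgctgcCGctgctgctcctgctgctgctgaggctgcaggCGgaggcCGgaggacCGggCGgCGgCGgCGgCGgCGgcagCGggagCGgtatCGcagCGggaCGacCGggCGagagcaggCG
Eif4enif1: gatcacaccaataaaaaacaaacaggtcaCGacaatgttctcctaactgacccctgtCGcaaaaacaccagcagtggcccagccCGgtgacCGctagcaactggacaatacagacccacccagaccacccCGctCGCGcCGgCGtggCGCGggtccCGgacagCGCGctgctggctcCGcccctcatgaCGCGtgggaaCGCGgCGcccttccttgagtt
The width at Eif4enif1 hence describes an interval that ends at this promoter rather than one centred on it. The list holds no signal along the interval, so how much of its length is acetylated cannot be read, and how well reads map there was not tested. Repeat-masked bases made up 34.2% of the peak, against a median of 26.8% over the 798 distinct promoter peaks of at least 10 kb, and the part of repeats in its width was not tested.

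Eif4a2, with the third widest peak of the members (chr16:23088231-23115146), is shown for comparison. Its stretch at chr16:23107268-23107487 on the plus strand held 28 CpG.
Eif4a2: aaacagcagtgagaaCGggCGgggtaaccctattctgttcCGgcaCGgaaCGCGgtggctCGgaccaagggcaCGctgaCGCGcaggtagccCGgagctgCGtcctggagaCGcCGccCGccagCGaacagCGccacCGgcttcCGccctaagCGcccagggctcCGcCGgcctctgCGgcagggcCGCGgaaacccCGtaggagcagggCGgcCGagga
Eif4a2 is 6639 bp long, and all of its 5 annotated starts lay in the peak.

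Eif4ebp3, the third 4E-BP, was unmarked. Its TSS lies 5.502 kb from the nearest peak, which was 1193 bp wide and at the promoter of Sra1, and the CpG ratio within 250 bp was 0.510. Eif3k, an eIF3 subunit that is not needed for the core of the complex, was the other eIF3 gene without a mark. Its TSS (chromosome 7, position 28981814) lies 236 bp from that of Map4k1 on the opposite strand, which shares the region and had no peak there either. The nearest peak, 5189 bp wide, lay 8.585 kb upstream within Map4k1, and a peak of 14390 bp at the promoter of Actn4 overlapped the 3′ end of Eif3k. From the list alone, an unmarked promoter without acetylation cannot be told apart from one whose signal fell below the height thresholds or lay away from an ATAC-seq summit.

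Peak widths at marked members spread over a wide range. The median was 2907.5 bp (quartiles 1761 and 8066 bp), against 2124 bp (1538 and 4688 bp) over all 10381 marked promoters. The 95% interval of the members' median, from ranks and covering only the number of members, ran from 1967 to 5204 bp and thus held the median of all marked promoters. Peaks under 2 kb were found at 17 of 46 members, 37.0%, and at 47.5% of all marked promoters. Peaks of at least 5 kb were found at 17 of 46 members, 37.0%, and at 23.2% of all marked promoters. Peaks of at least 10 kb were found at 10 members, 21.7%, against 10.2%, and these were Eif4enif1, Eif4e2, Eif4a2, Eif2s2, Eif4a1, Eif4ebp1, Eif4ebp2, Eif2d, Eif4b and Eif2b5. No marked member had a peak under 1 kb, whereas 10.9% of all marked promoters did. The 5 narrowest were those of Eif3f, Eif2ak1, Eif2b3, Eif1b (1256 bp) and Eif4g3. Since peaks within 2 kb of each other were merged by the authors, a wide peak may hold several separate stretches of signal.

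**Figure D3:**
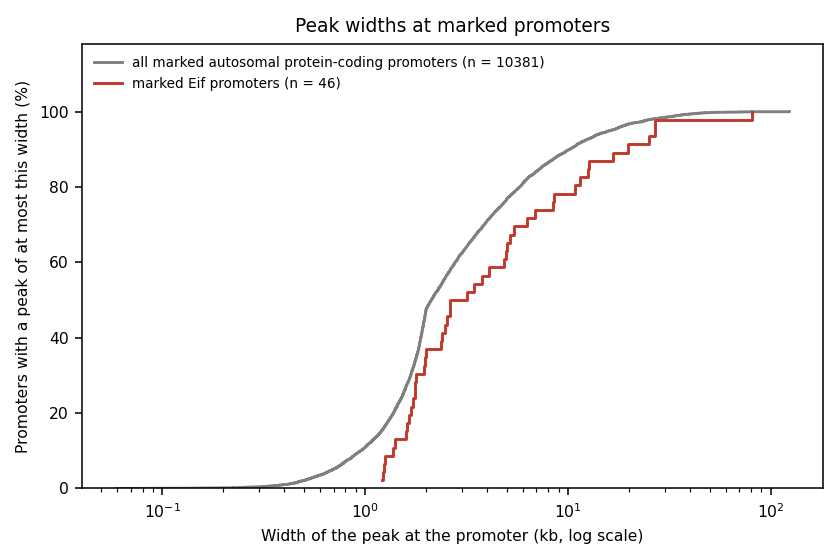
Cumulative share of marked promoters with a peak of at most a given width (kb, log scale), for the 46 marked Eif genes (red) and all 10381 marked autosomal protein-coding genes (grey). The red line lies to the right of the grey one over most of the range, with medians of 2907.5 bp and 2124 bp.

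Eif2b5, Eif4g1 and Eif4a2 lie on chromosome 16, and their median width was 10862 bp, whereas it was 2626 bp for the 43 marked members elsewhere. Over all marked genes the median was 2032 bp on chromosome 16 and 2126.5 bp on the other autosomes. The members' median was also 2626 bp when only peaks without another gene's promoter were kept. A peak was shared with the promoter of another protein-coding or lincRNA gene at 11 marked members, 23.9%, against 29.5% of all marked genes.

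Peaks reached further into the gene than away from it. The median reach was 985.5 bp upstream and 1444 bp downstream at marked members, and 834 bp and 1158 bp at all marked genes. The downstream reach was the longer one at 32 of 46 members, 69.6%, close to the 67.4% of all marked genes. In 20 members the downstream edge lay in intron 1, and the peak covered a median of 11.8% of the gene. At 5 members, Eif4a1, Eif4a2, Eif4e2, Eif4ebp1 and Eif5, it covered at least 80%. Upstream reaches of at least 5 kb occurred at 4 members (Eif2s2, Eif2d, Eif4a2 and Eif4enif1), and upstream reaches under 100 bp at 5 (Eif3f, Eif3g, Eif4e, Eif4ebp2 and Eif4g3). The counts by intron, by part of the gene covered and by these limits of reach were made for members only. Whether they differ from those of all marked genes was not tested.

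Several members held further peaks within the gene. Eif3h had 2 in introns 1 and 2, and Eif2d had 2, of which 1 of 6226 bp lay in intron 6 and the other reached into Rassf5. Single peaks lay in intron 2 of Eif2a, intron 5 of Eif2b3 and intron 2 of Eif4g3. At Eif4g1, Eif3d, Eif6 and Eif3b the additional peak held the promoter of a neighbouring gene (Fam131a, Foxred2, BC029722 and Gm4869). Of the 32 marked members with more than 1 annotated start, 20 had every start marked, 62.5%, near the 63.4% of all 7220 such marked genes.

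The members were richer in CpG around the TSS than the average gene. Within 1 kb of the TSS the members' median GC content was 54.5% and their median CpG ratio 0.708, against 51.6% and 0.493 over all autosomal protein-coding genes. Marked members had a median ratio of 0.737 and the 6 unmarked ones of 0.531, whereas over all genes these were 0.644 and 0.228. Promoters with a CpG ratio of at least 0.6 and a GC content of at least 55% within 250 bp of the TSS, here called CpG-rich, made up 46 of 52 members, 88.5%, and 47.6% of all genes. Among CpG-rich promoters 42 of 46 members were marked, 91.3% (79.7 to 96.6), against 80.2% of all such genes. The gap between members and all genes was narrower in this class than over all genes (88.5% and 50.1%), but not in the other class.

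Of the 6 members whose promoters were not CpG-rich, 4 were marked (Eif2d, Eif4e, Eif5a and Eif6), 66.7% (30.0 to 90.3), against 22.7% of all such genes, and 2 were not (Eif4e1b and Eif4ebp3). Of these 4, only Eif4e had a CpG ratio below 0.6 (0.542). Eif2d (0.731), Eif5a (0.875) and Eif6 (0.646) missed only the limit on GC content. The other 4 unmarked members, Eif1, Eif3j2, Eif3k and Eif4e3, were CpG-rich within 250 bp, but only Eif1 was so within 1 kb. With the same limits applied within 1 kb of the TSS, 20 of 21 CpG-rich members were marked, 95.2%, against 81.5% of all such genes, and 26 of 31 other members, 83.9%, against 41.3%. A start of another gene on the opposite strand within 2 kb upstream was annotated at 6 members, of which 5 were marked, 83.3% (43.6 to 97.0), against 84.9% of all such genes. Without such a neighbour 41 of 46 members were marked, 89.1%, against 46.2% of all such genes.

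**Figure D4:**
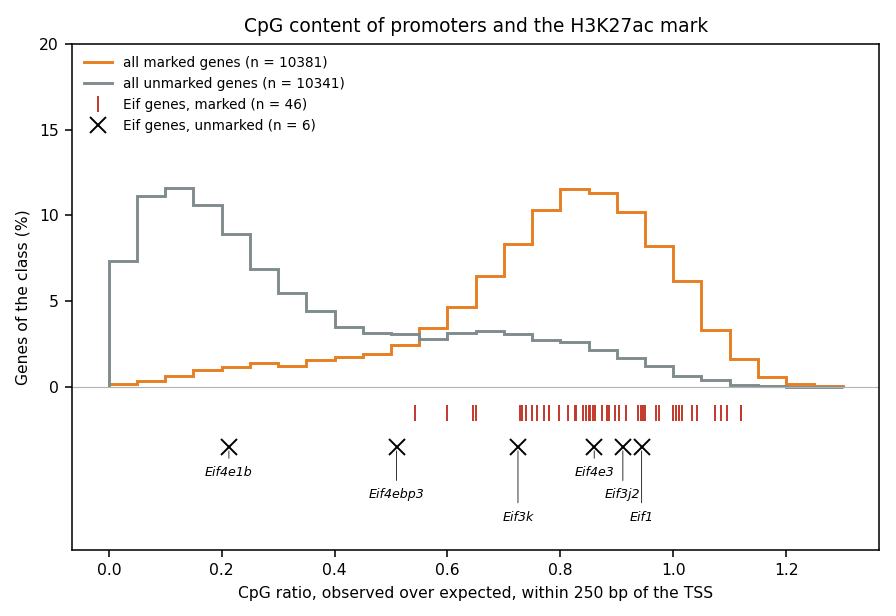
CpG ratio (observed over expected) within 250 bp of the TSS. Lines give the share of all marked (orange) and all unmarked (grey) autosomal protein-coding genes in bins of the ratio, and ticks and crosses below them mark single Eif genes. The 46 marked Eif genes lie between 0.542 and 1.12, and 4 of the 6 unmarked ones lie among them.

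RefSeq promoter sequences from 250 bases before to 50 after the start were matched by symbol for 40 of 52 members, 38 of them marked, and for 15679 autosomal protein-coding genes. The members without an entry were Eif1a, Eif2b3, Eif3e, Eif3h, Eif3i, Eif3j2, Eif4e1b, Eif4e3, Eif4ebp1, Eif4ebp3, Eif4g2 and Eif6. Motifs were searched on both strands as exact letters, and a match describes the sequence only. The GC box GGGCGG was found in 29 of 40 members, 72.5%, against 49.1% of all promoters and 68.7% of marked ones. The ETS element CCGGAAG was found in 13 members, 32.5%, against 12.6% of all and 20.9% of marked promoters, and the 13 included Eif3c, Eif3d, Eif3g, Eif3l and Eif3m as well as Eif2b2 and Eif2b4. The E-box CACGTG, to which Myc and other factors of its class bind, was found in 8 members, 20%, against 8.08% of all and 10.7% of marked promoters. The 8 were Eif1b, Eif3a, Eif3f, Eif3k, Eif4a1, Eif4g1, Eif4h and Eif5a2, of which Eif3k was unmarked.

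Each of the other elements was held by at most 13 members. CCAAT was found in 13 members, 32.5%, against 38.4% of all and 38.7% of marked promoters, TATAAA in 3, 7.5%, against 12.9% of all and 6.06% of marked promoters, and the core GCATGCGC of the NRF1 element in 3, 7.5%, against 3.81% of all and 6.17% of marked promoters. Neither the cAMP response element TGACGTCA nor TGATGNAAN, a form of the element read by ATF4 in the integrated stress response, was found in any of the 40, at 2.46% and 3.28% of all and 3.56% and 1.96% of marked promoters. Many mRNAs of the translation machinery begin with a C and a run of pyrimidines, through which mTOR controls their translation. A C at the RefSeq start followed by at least 4 pyrimidines was found at 1 member, Eif3f, 2.5%, against 2.15% of all and 2.20% of marked promoters. This match needs the exact first base. The RefSeq start of the 40 members lay a median of 24.5 bp from the TSS used here, so the count cannot tell which mRNAs begin with such a run.

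Other genes of translation were marked at a like rate. Of a list of 39 autosomal genes for elongation, termination, recycling, poly(A)-binding and control, 35 were marked, 89.7% (76.4 to 95.9), with a median peak width of 3302 bp. Over all autosomal protein-coding genes 50.1% were marked, with a median of 2124 bp. With the TSS itself required inside a peak, 33 of the 39 were marked, 84.6%, against 45.2% of all genes. The elongation genes were marked at 8 of 9. Eef1a1 and Eef2 had peaks of 13460 bp and 12200 bp, and Eef1a2, the form found in neurons and muscle, was unmarked. Among 11 genes of control, 9 were marked. The kinases Mknk1 and Mknk2, which phosphorylate eIF4E, had peaks of 20203 bp and 5073 bp, and Mtor had 1680 bp. Ppp1r15a and Ppp1r15b, which direct the phosphatase that acts on eIF2 alpha, had 13363 bp and 10900 bp. Unmarked were Atf4, whose mRNA is translated when eIF2 is phosphorylated, and Pdcd4, an inhibitor of eIF4A, and outside these groups Cyfip2. No annotated start of Atf4 or Cyfip2 was marked, whereas 2 of the 3 of Pdcd4 were, so that 36 of the 39 genes were marked when any isoform counted. Dhps and Dohh, the enzymes that make hypusine on eIF5A, had peaks of 2765 bp and 10894 bp.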

How the data were processed

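H3K27ac ChIP-seq of 2 control samples was used in the form of the deposited peak list. It holds a chromosome and the first and last position of each peak in mm10 (the same assembly as GRCm38) and no signal. Per the methods, the authors used Cutadapt to remove adapters and bwa meme to align reads to a joint index of mouse and human. Duplicates (Picard 2.9.1) and reads of low mapping quality (SAMtools 1.4) were discarded, LanceOtron called the peaks, those within 2 kb were merged, and peaks of low input-subtracted height or away from ATAC-seq summits were dropped.

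Genes came from GENCODE M21, an earlier release than the study names. Windows of 1 kb on either side of the TSS (from the isoform of longest genomic span) were intersected with the peaks, and the peak nearest the TSS gave the width. GC content and the CpG ratio were read from GRCm38.p6, promoter sequences from RefSeq. Positions are counted from 1. Shares have 95% Wilson intervals, and depth cannot be read from the list (the study gives read totals of the libraries, not used here). The functions were tested on simulated peaks. Python 3.11.15, pandas 2.3.3, scipy 1.17.1 and pysam 0.24.0 were used.

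The members, lists and motifs were chosen with earlier results of these data known. Every member is accounted for; those named with values are the unmarked ones, paralogs that differed in state, the 5 widest and 5 narrowest peaks, shared promoters and the subunits of eIF2, eIF2B, eIF3 and eIF4F. Alternatives varied the window, isoform, overlap, smallest width, shared promoters and member class. Starts from RefSeq, the omission of chromosome 16, and all alternatives for the translation list and for the upstream and downstream reach were added after the data were seen. No significance test was made.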

Additional observations from a re-analysis of the deposited data

How the results depend on the processing

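The state of each single member was the same in all 490 values under alternatives, with 46 members marked and 6 unmarked throughout. Much of this was fixed in advance. Settings that only left genes out could not change a state. Since each marked peak held the TSS and was at least 1210 bp wide, the window and width settings could not unmark a member. Of 55 summary values 52 stayed within the main value's counting interval or spread, and 3 moved. With any RefSeq start in place of the annotated TSS, the share of marked members was 95%, 38 of 40, since 12 members have no entry in that table and 4 of these were unmarked. With 250 bp in place of 1 kb on either side of the TSS, the median GC content was 62.7% and the median CpG ratio 0.868. The difference between members and all genes ranged from 36.1 points (all isoforms) to 43.8 points (peaks of at least 1 kb). No paired analysis was possible because the list pools both control replicates and no test was made, and no replicate could be left out for the same reason. The list holds neither depth nor how close an unmarked promoter came to the authors' thresholds.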
